A study of Mus musculus with 10 samples.

Results

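Potassium channel genes were examined in RNA from the lumbar spinal cord of mouse embryos at E12.5. Members were the protein-coding genes whose symbol starts with Kcn followed by a letter and that reached at least 1 CPM (read counts scaled to the library total) in 2 or more of the 10 embryos. Of the 54146 rows of the count table, 99 carried such a symbol, 94 of these were protein coding (the other 5 were antisense transcripts), and 69 passed the level rule. The 69 members were 28 voltage-gated alpha subunits, 5 electrically silent modifier subunits, 8 calcium- or sodium-activated channels, 7 two-pore-domain leak channels, 9 inward rectifiers and 12 auxiliary subunits or regulators.

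The study compared *Dot1l*-cKO embryos with control littermates. DOT1L is a histone methyltransferase that places methyl groups on lysine 79 of histone H3. Litter 1 held 3 control embryos with 2 floxed *Dot1l* alleles and no cre transgene and 3 *Dot1l*-cKO embryos with 2 floxed alleles and the Wnt1-cre2 transgene. Litter 2 held 2 controls with 1 floxed allele and no transgene and 2 *Dot1l*-cKO embryos with 2 floxed alleles and the transgene. By the labels the strain background was B6.Cg, the transgene sits at the *E2f1* locus, and the dorsal root ganglia stayed on the tissue. Wnt1-cre2 acts mainly in the dorsal neural tube and in the neural crest, so that the cord is a mixture of cells with and without the deletion. Because no control carried the transgene, the loss of *Dot1l* and the presence of the transgene cannot be told apart.

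Potassium channels let potassium ions leave or enter a cell along their electrochemical gradient, and in most cells they pull the membrane potential towards rest. Pore-forming alpha subunits assemble as tetramers (dimers in the two-pore family), while silent subunits and auxiliary subunits change the gating, the trafficking or the ion flow of the pore they join. In the embryonic spinal cord, voltage-gated, inward rectifier and leak channels appear in sequence as progenitors leave the cell cycle and become excitable neurons.

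Total counts on genes lay between 40949585 and 68928443 per embryo, and the 69 members together took 983 to 1439 CPM, with 1244 to 1439 CPM in the 6 embryos of litter 1 and 983 to 1127 CPM in the 4 embryos of litter 2. *Dot1l* itself did not pass the test, at 87.6 to 107 CPM in the control embryos and 97.8 to 112 CPM in those labelled *Dot1l*-cKO (0.17 on the log2 scale, adjusted p = 0.130 with edgeR), so that whole-gene counts are no check of the genotype. Both litter 2 embryos labelled *Dot1l*-cKO had *Xist* at 6.00 and 6.79 CPM and the Y-linked *Ddx3y* at 46.7 and 41.5 CPM, whereas *Xist* was at 499 to 890 CPM in the other 8 embryos. In litter 2 genotype and sex therefore cannot be told apart, while all 6 embryos of litter 1 showed the same *Xist*-high pattern. In bulk tissue, fewer cells of a type and less RNA per cell cannot be told apart either.

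The promoters listed in RefSeq for members called in a genotype comparison are shown first, as 250 bases before and 50 after the annotated start, written 5′ to 3′ on the gene's own strand in build GRCm38.p6. RefSeq entries were at hand for 49 of the 69 members, and *Kcnk3* and *Kcnk9* are named without a sequence. Capitals mark E-boxes (CANNTG), GC boxes (GGGCGG, or CCGCCC on the other strand) and the left and the right part of the neuron-restrictive silencer element RE1 (TTCAGCACC and GGACAGC). The first pair belongs to channels that were higher in embryos labelled *Dot1l*-cKO, and the second pair to genes that were lower in such embryos of litter 1.
*Kcnc4*, chr3:107458849-107459148, minus strand: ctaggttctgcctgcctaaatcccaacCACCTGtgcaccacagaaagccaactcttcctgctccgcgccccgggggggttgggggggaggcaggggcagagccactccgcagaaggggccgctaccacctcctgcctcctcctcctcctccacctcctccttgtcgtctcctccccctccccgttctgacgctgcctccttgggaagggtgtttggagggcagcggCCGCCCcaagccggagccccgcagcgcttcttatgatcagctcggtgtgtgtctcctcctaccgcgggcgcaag
*Kcnh4*, chr11:100759729-100760028, minus strand: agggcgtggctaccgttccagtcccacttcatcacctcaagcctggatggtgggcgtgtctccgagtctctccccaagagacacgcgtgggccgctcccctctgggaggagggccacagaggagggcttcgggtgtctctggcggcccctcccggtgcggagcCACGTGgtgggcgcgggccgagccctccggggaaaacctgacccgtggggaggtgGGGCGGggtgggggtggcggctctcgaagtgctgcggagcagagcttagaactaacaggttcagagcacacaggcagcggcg
*Kcnmb2*, chr3:31902453-31902752, plus strand: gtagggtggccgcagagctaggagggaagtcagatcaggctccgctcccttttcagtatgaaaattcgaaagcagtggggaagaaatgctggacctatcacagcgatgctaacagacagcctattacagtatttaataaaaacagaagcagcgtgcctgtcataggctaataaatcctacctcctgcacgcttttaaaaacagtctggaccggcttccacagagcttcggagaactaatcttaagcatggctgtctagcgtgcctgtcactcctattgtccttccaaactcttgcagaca
*Kcnh6*, chr11:106007898-106008197, plus strand: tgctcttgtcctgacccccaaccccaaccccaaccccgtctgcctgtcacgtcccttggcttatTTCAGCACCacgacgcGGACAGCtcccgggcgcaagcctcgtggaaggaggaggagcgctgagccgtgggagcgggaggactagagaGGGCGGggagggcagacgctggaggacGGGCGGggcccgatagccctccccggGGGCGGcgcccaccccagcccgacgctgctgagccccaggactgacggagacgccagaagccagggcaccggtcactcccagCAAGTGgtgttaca

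The *Kcnc4* and *Kcnh4* promoters each held 1 GC box and 1 E-box, and had a GC content of 66.7% and 68.7% with 17 and 23 CpG dinucleotides. The *Kcnmb2* promoter held none of these motifs and had a GC content of 47.7% with 9 CpG dinucleotides. In the *Kcnh6* promoter, 3 GC boxes and 1 E-box stood beside both RE1 parts, which lay 7 bases apart. Both RE1 parts occurred together in 14 of all 32851 RefSeq promoters of the same length (0.0426%), and *Kcnh6* was the only gene with both among the 72 listed promoters of members; with the 2-base spacing of the classical element they occurred in 3 of all promoters (0.00913%) and in 0 of the 72. The left part was in 0.371% of all promoters and the right part in 6.56%, on either strand. A GC box was present in 50% of the members' promoters and in 35.7% of all promoters, an E-box in 70.8% and 72.3%, and a TATA box (TATAAA) in 4.17% and 13.6%. The median GC content was 60% for the members' promoters and 52.7% for all. These are matches of letters, and binding of a factor was not measured.

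Levels differed widely within and between classes. Levels between genes are compared per length, as RPKM, the CPM of a gene divided by its exon length in kilobases. Among the highest members were *Kcnh2*, the ERG channel, at a mean of 11.6 RPKM (9.06 to 14.1 over the 10 embryos) and the auxiliary subunit gene *Kcne1l* at 11.3 RPKM (8.25 to 13.5), whose ranges overlapped. *Kcnab2* at 9.89 RPKM (6.78 to 13.0) and *Kcna6* at 9.62 RPKM (6.44 to 12.7) overlapped with these as well.

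In the other classes the highest members were *Kcnn1* (6.14 RPKM), a small-conductance calcium-activated channel, *Kcnk2* (6.08 RPKM), the mechanosensitive TREK leak channel, *Kcnj12* (5.07 RPKM), a strong inward rectifier, and the silent subunit gene *Kcnf1* (1.27 RPKM). Class medians were 2.06 RPKM for voltage-gated alpha subunits, 2.70 for auxiliary subunits, 2.34 for two-pore channels, 1.16 for inward rectifiers, 0.937 for calcium- or sodium-activated channels and 0.384 for silent modifiers. By summed CPM, which also reflects gene length, the voltage-gated alpha subunits took 58.2% of the members' counts and the auxiliary subunits 16.2%.

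**Figure D1:**
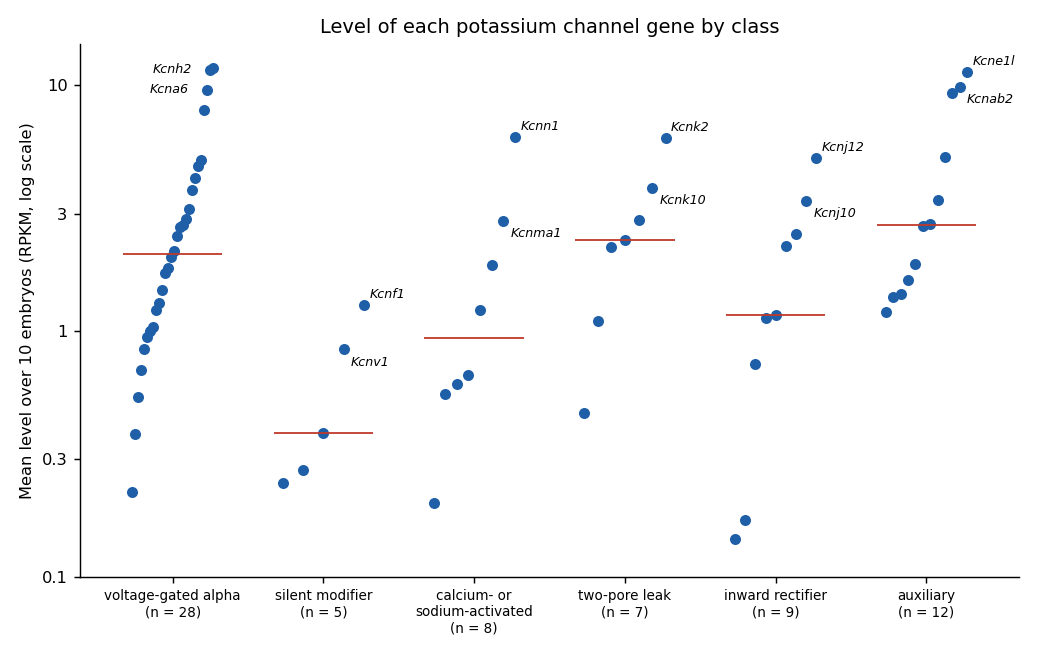
Each point is the mean level of 1 potassium channel gene over the 10 embryos in RPKM (log axis), arranged by channel class, with the class median as a red line and 2 high genes of each class named. The 5 silent modifiers stay at or below 1.27 RPKM.

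Of the 30 voltage-gated alpha subunit genes, 28 were members (the others were *Kcna7* and *Kcna10*), and so were all 8 genes of the calcium- or sodium-activated class. In contrast, 7 of 14 two-pore genes, 9 of 15 inward rectifier genes, 5 of 10 silent modifier genes and 12 of 17 auxiliary genes reached the level rule. The members just inside the rule were *Kcnj16*, whose second-highest embryo was at 1.03 CPM, and *Kcns1* at 1.15 CPM. Just outside were *Kcnmb1* and *Kcnj14*, whose second-highest embryo was at 0.948 CPM. *Kcna10* was at 0 counts in each embryo. All 69 members passed the expression filter of the test, and 61 reached 1 CPM in each of the 10 embryos.

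In the comparison of embryos labelled *Dot1l*-cKO with controls, with the litter as a term, 5 of the 69 members rose and 0 fell at an adjusted p below 0.05 (edgeR's quasi-likelihood test, Benjamini-Hochberg adjustment over 19773 genes). The background was 1.90% of all genes called higher and 1.09% called lower, or 2.45% and 1.20% of the protein-coding genes that met the same level rule. Among them were the voltage-gated *Kcnc4* and *Kcnh4* and the two-pore channels *Kcnk3* and *Kcnk9*. At an unadjusted p below 0.05 there were 21 members (30.4%), beside 21.7% of all genes. The median log2 fold change of the members was 0.10, with 47 positive and 22 negative values, beside a median of -0.01 over all genes tested.

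*Kcnk3* (chromosome 5 from 30588170 to 30625271, plus strand) encodes an acid-sensitive TASK leak channel. It was at 7.69, 9.32 and 7.80 CPM in the controls of litter 1, 13.8, 11.5 and 11.2 CPM in their littermates labelled *Dot1l*-cKO, 6.07 and 5.21 CPM in the controls of litter 2 and 6.71 and 8.10 CPM in the litter 2 embryos labelled *Dot1l*-cKO. Within each litter the embryos labelled *Dot1l*-cKO lay above the controls, but the litter 2 embryos labelled *Dot1l*-cKO overlapped with the litter 1 controls. *Kcnk3* rose 1.41-fold (log2 fold change 0.50 with a standard error of 0.10, adjusted p = 0.0270, edgeR). Its exons share 229 bases with *Gm9899* on the opposite strand, and since the library kit does not mark strand, reads from these bases cannot be assigned to either gene.

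*Kcnk9* (chromosome 15 from 72501089 to 72546340, minus strand), a second TASK channel, was at 36.2, 32.0 and 35.2 CPM in the controls of litter 1, 43.8, 41.1 and 43.3 CPM in their littermates labelled *Dot1l*-cKO, 26.4 and 28.2 CPM in the controls of litter 2 and 29.6 and 31.8 CPM in the litter 2 embryos labelled *Dot1l*-cKO. The separation again held within each litter, and litter 2 lay lower as a whole. The rise was smaller, at 1.19-fold (log2 fold change 0.26 with a standard error of 0.06, adjusted p = 0.0330, edgeR).

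*Kcnc4* (chromosome 3 from 107438303 to 107459552, minus strand) belongs to the fast-gating KV channels of the Shaw family. It was at 5.53, 5.00 and 4.81 CPM in the controls of litter 1, 7.56, 7.46 and 6.05 CPM in their littermates labelled *Dot1l*-cKO, 1.35 and 1.29 CPM in the controls of litter 2 and 2.52 and 3.26 CPM in the litter 2 embryos labelled *Dot1l*-cKO. Each litter 2 embryo lay below each litter 1 embryo, and within each litter the embryos labelled *Dot1l*-cKO were the higher ones. *Kcnc4* rose 1.60-fold (log2 fold change 0.68 with a standard error of 0.14, adjusted p = 0.0303, edgeR) and thus combined a genotype and a litter difference.

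*Kcnh4* (chromosome 11 from 100740376 to 100759942, minus strand), an ELK channel of the ether-a-go-go group, was at 9.80, 9.77 and 11.2 CPM in the controls of litter 1, 13.8, 14.1 and 12.3 CPM in their littermates labelled *Dot1l*-cKO, 9.20 and 10.1 CPM in the controls of litter 2 and 10.8 and 11.8 CPM in the litter 2 embryos labelled *Dot1l*-cKO. The embryos labelled *Dot1l*-cKO lay above the controls within each litter. The difference was 1.25-fold (log2 fold change 0.32 with a standard error of 0.08, adjusted p = 0.0451, edgeR), the closest of these to the threshold.

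**Figure D2:**
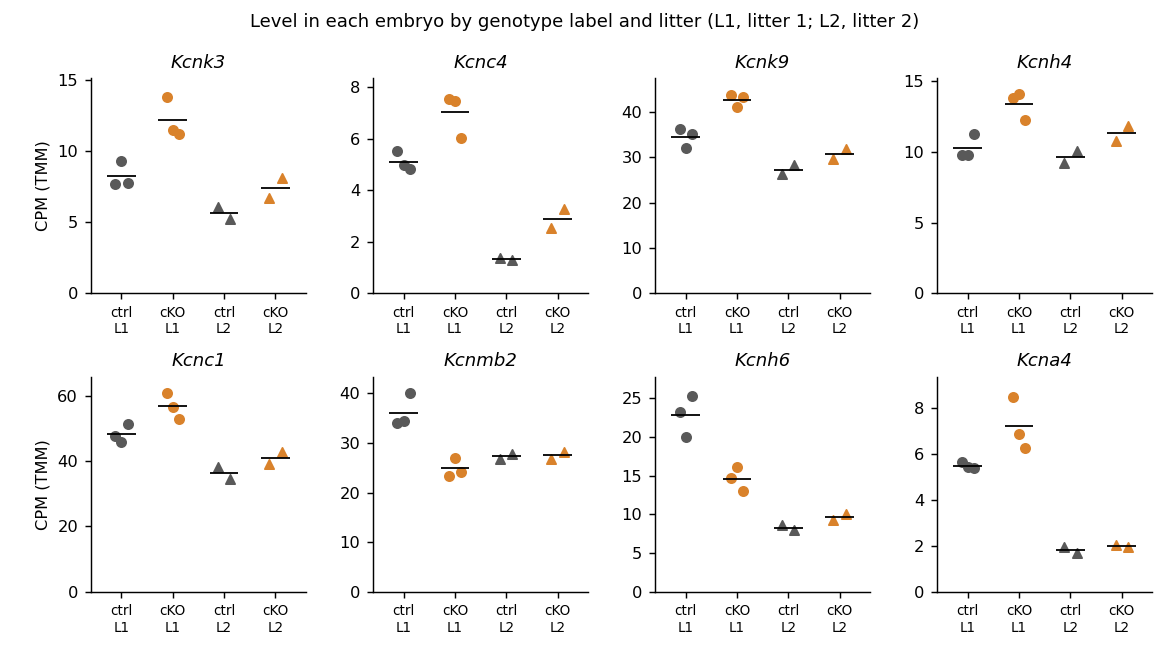
Each panel plots the level of 1 gene in CPM after TMM normalization (linear axis from 0) for the 10 embryos, by genotype label (grey, control; orange, *Dot1l*-cKO) and litter (circles, litter 1; triangles, litter 2), with the group mean as a line. *Kcnk3*, *Kcnc4*, *Kcnk9*, *Kcnh4* and *Kcnc1* separate the genotype labels upwards within each litter, *Kcnmb2* and *Kcnh6* separate downwards in litter 1 only, and *Kcnc4* and *Kcna4* show the lower levels of litter 2.

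These calls depended on which embryos and covariates were in the fit. *Kcnk3* kept its call in 5, *Kcnc4* in 4, *Kcnk9* in 4 and *Kcnh4* in 2 of the 10 fits without 1 embryo, with the direction kept in each. Without the litter term, and with *Xist* as a covariate, 0 members rose. Low *Xist* marked only the litter 2 embryos labelled *Dot1l*-cKO, so with that covariate the genotype term rests mainly on litter 1.

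Among the members that did not pass the threshold, the largest positive values belonged to genes of low level. *Kcnh3*, another ELK channel, was at 1.19, 1.12 and 1.34 CPM in controls and 1.53, 1.91 and 1.27 CPM in embryos labelled *Dot1l*-cKO of litter 1, and 0.717 and 0.405 against 1.43 and 1.83 CPM in litter 2 (log2 fold change 0.77 with a standard error of 0.24, adjusted p = 0.0841, edgeR). The silent subunit genes *Kcns1* and *Kcns2*, whose products modify KV channels of the Shab family, had log2 fold changes of 0.70, adjusted p = 0.122 and 0.55, adjusted p = 0.0728 in the same test. In both, the litter 1 embryos labelled *Dot1l*-cKO lay above the litter 1 controls and the groups overlapped in litter 2. *Kcns2* was at 1.49, 1.45 and 1.49 CPM in controls and 2.63, 2.22 and 2.21 CPM in embryos labelled *Dot1l*-cKO of litter 1, and 0.637 and 1.04 against 1.13 and 0.949 CPM in litter 2.

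*Kcnc1* and *Kcnc2*, further genes of the Shaw family known for fast spiking, had positive values without passing the test, with log2 fold changes of 0.21 and 0.49 (adjusted p = 0.0597 and 0.0601, edgeR). *Kcnc1* was at 47.6, 45.8 and 51.4 CPM in controls and 60.7, 56.5 and 52.8 CPM in embryos labelled *Dot1l*-cKO of litter 1, and 38.1 and 34.5 against 39.0 and 42.8 CPM in litter 2, with no overlap within either litter. *Kcnc2* showed the same order, at 6.37, 7.04 and 5.25 CPM in controls and 10.9, 7.77 and 9.20 CPM in embryos labelled *Dot1l*-cKO of litter 1, and 3.09 and 3.04 against 3.09 and 4.61 CPM in litter 2, with values that almost touched in litter 2.

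*Kcnn2*, a small-conductance calcium-activated channel, was at 3.72, 4.24 and 4.04 CPM in controls and 5.73, 5.83 and 5.26 CPM in embryos labelled *Dot1l*-cKO of litter 1, and 2.41 and 3.26 against 3.21 and 3.74 CPM in litter 2 (log2 fold change 0.42 with a standard error of 0.11, adjusted p = 0.0552, edgeR), with an overlap in litter 2 alone. *Kcnh2* had a log2 fold change of 0.28, adjusted p = 0.0804. Further positive values that did not pass the threshold belonged to *Kcna4* (0.30, adjusted p = 0.135), an A-type channel subunit, *Kcnip4* (0.32, adjusted p = 0.175), whose product binds Shal-type channels, *Kcnu1* (0.31, adjusted p = 0.189), the sperm channel of the SLO family, *Kcne1l* (0.24, adjusted p = 0.144) and *Kcnk2* (0.13, adjusted p = 0.183). The 2 members with negative values among the 20 with the smallest p were *Kcnmb2* (-0.32, adjusted p = 0.0774), an inactivating beta subunit of the BK channel, and *Kcnk5* (-0.30, adjusted p = 0.124), an alkaline-sensitive leak channel.

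By class, 3 of 28 voltage-gated alpha subunits and 2 of 7 two-pore channels rose, and 0 members rose in the 4 other classes. The class medians of the log2 fold change were 0.13 for voltage-gated alpha subunits, 0.13 for two-pore channels, 0.20 for silent modifiers, 0.09 for calcium- or sodium-activated channels, 0.08 for auxiliary subunits and 0.02 for inward rectifiers. The silent modifiers lay between 0.04 and 0.70, none past the threshold, and the highest value belonged to *Kcns1*, which became a member only through litter 1 embryos labelled *Dot1l*-cKO (2 at an unadjusted p below 0.05; 0 called by limma-voom, and *Kcns2* by DESeq2). The 9 inward rectifiers lay between -0.25 and 0.20, with 0 at an unadjusted p below 0.05 and 0 called by DESeq2 or limma-voom.

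**Figure D3:**
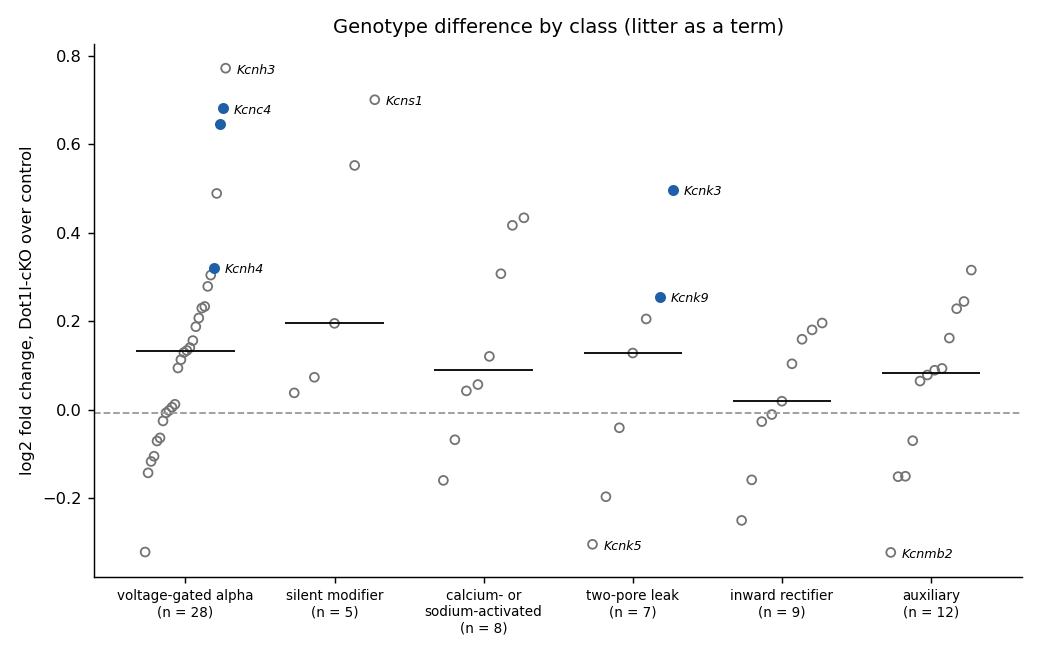
Each point is the log2 fold change of 1 gene between embryos labelled *Dot1l*-cKO and controls from the fit with litter, by channel class; filled points have an adjusted p below 0.05, black lines are class medians and the dashed line is the median of all genes tested (-0.01). The 5 filled points, from 0.26 to 0.68, lie in the voltage-gated and the two-pore class.

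Within each litter the genotype was compared by contrasts of a fit with 4 group means. In litter 1 (3 against 3, all *Xist*-high), 1 member rose and 2 fell, beside 0.245% of all 20446 genes called higher and 0.352% called lower. In litter 2 (2 against 2), 2 members rose and 0 fell, beside 0.205% and 0.0489% of all genes.

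*Kcnc4* rose in litter 2 (2.19-fold, log2 fold change 1.13 with a standard error of 0.20, adjusted p = 0.0395, edgeR). In litter 1 its log2 fold change was 0.46, adjusted p = 0.143. The test of the difference between the litters gave an adjusted p = 0.517. The litter 2 call was kept in 3 of the 10 fits without 1 embryo, being lost without any 1 of the 5 controls or either litter 2 embryo labelled *Dot1l*-cKO (log2 fold changes from 0.93 to 1.31 over the 10 fits), and was lost with limma-voom.

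*Kcnmb2* (chromosome 3 from 31902507 to 32200180, plus strand) was at 33.9, 34.3 and 40.1 CPM in the controls of litter 1, 23.4, 27.1 and 24.1 CPM in their littermates labelled *Dot1l*-cKO, 26.8 and 27.8 CPM in the controls of litter 2 and 26.7 and 28.3 CPM in the litter 2 embryos labelled *Dot1l*-cKO. The litter 1 controls stood above the litter 1 embryos labelled *Dot1l*-cKO with a gap, and the litter 2 groups overlapped. In litter 1 *Kcnmb2* fell (log2 fold change -0.54 with a standard error of 0.08, adjusted p = 0.0171, edgeR), and in litter 2 the log2 fold change was 0.01, adjusted p = 0.972. The litter 1 call was lost in 3 of the 10 fits without 1 embryo, those without the controls at 33.9 or 40.1 CPM or the embryo labelled *Dot1l*-cKO at 23.4 CPM (adjusted p = 0.0599, 0.0964 and 0.0948, edgeR), and with the embryos of litter 1 alone (adjusted p = 0.0595), with the direction kept in each.

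*Kcnh6* (chromosome 11 from 106008124 to 106034549, plus strand), an ERG channel and the gene of the promoter with both RE1 parts, was at 23.2, 20.1 and 25.3 CPM in the controls of litter 1, 14.7, 16.2 and 13.0 CPM in their littermates labelled *Dot1l*-cKO, 8.60 and 7.92 CPM in the controls of litter 2 and 9.23 and 10.1 CPM in the litter 2 embryos labelled *Dot1l*-cKO. The controls were the higher group in litter 1 and the lower group in litter 2, without overlap in either. It fell in litter 1 (log2 fold change -0.65 with a standard error of 0.11, adjusted p = 0.0219, edgeR) and had a log2 fold change of 0.22, adjusted p = 0.429 in litter 2. Its litter 1 call was lost without any 1 of the same 3 embryos (adjusted p = 0.103, 0.125 and 0.117, edgeR) and with the embryos of litter 1 alone (adjusted p = 0.0635), again with the direction kept.

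The interaction of litter and genotype was past the threshold for 0 of the 69 members with edgeR, beside 0.00978% of all genes (11 members, or 15.9%, at an unadjusted p below 0.05, beside 8.05% of all genes), for 0 with limma-voom, and for 2 with DESeq2, *Kcnh6* and *Kcnmb2*. The share of all genes that DESeq2 called for the interaction was not counted. The smallest unadjusted p values in edgeR belonged to *Kcnh6* (interaction 0.87 on the log2 scale, adjusted p = 0.198), *Kcnmb2* (0.55, adjusted p = 0.314) and the inward rectifiers *Kcnj12* (0.71, adjusted p = 0.345) and *Kcnj8* (0.77, adjusted p = 0.362). *Kcnj8*, the pore of a vascular ATP-sensitive channel, was at 8.67, 8.10 and 7.07 CPM in controls and 7.06, 6.78 and 5.46 CPM in embryos labelled *Dot1l*-cKO of litter 1, and 4.20 and 4.15 against 6.04 and 5.53 CPM in litter 2, so that the order of the groups was opposite in the litters. *Kcnj12* had log2 fold changes of -0.25 and 0.46 in litters 1 and 2.

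Of the 69 members, 44 (63.8%) had a genotype log2 fold change of the same sign in both litters, 35 positive and 9 negative, which is close to the 61.8% of all genes. In 10 members (14.5%) each embryo labelled *Dot1l*-cKO lay above each control within both litters, beside 3.80% of all genes, and in 0 members below, beside 4.15%. These 10 were the 5 genes that rose and *Kcnc1*, *Kcnc2*, *Kcnip4*, *Kcnj9* and *Kcnk2*. The embryos are the ones on which the test was run, so this order is another description of the same data.

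**Figure D4:**
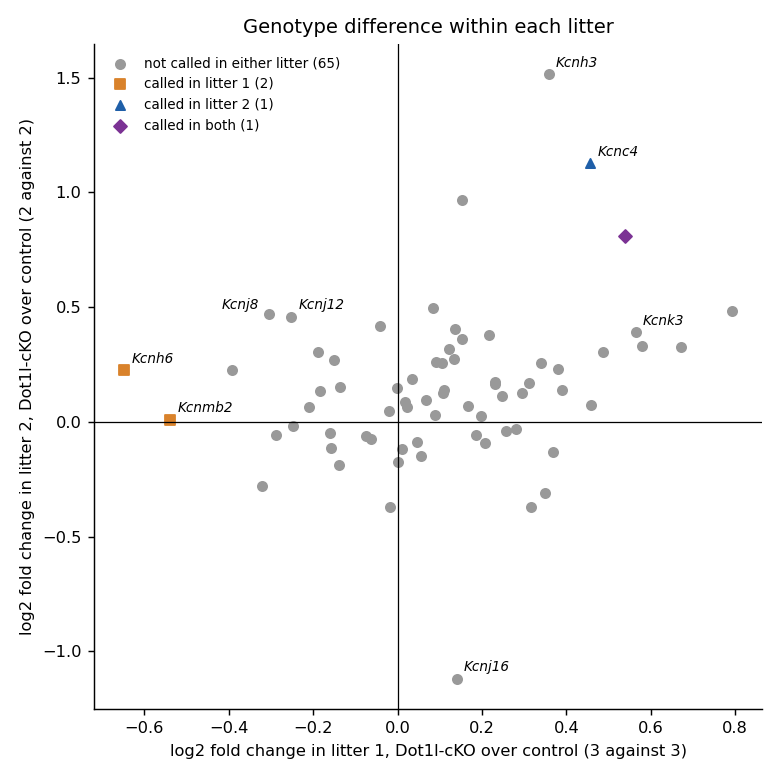
Each point is 1 of the 69 genes, with the log2 fold change between embryos labelled *Dot1l*-cKO and controls in litter 1 (x axis, 3 against 3) and in litter 2 (y axis, 2 against 2), and the marker gives the litters in which the adjusted p was below 0.05. *Kcnh6* (-0.65 and 0.22) and *Kcnmb2* (-0.54 and 0.01) are called in litter 1, and *Kcnc4* (0.46 and 1.13) in litter 2.

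Cell type markers also differed between the genotype labels within litters. Of 9 dorsal root ganglion sensory neuron markers, 4 fell in litter 1 (median log2 fold change -0.38), with summed levels of 1027 to 1142 CPM in controls and 749 to 934 CPM in embryos labelled *Dot1l*-cKO. In litter 2, 1 of the 9 rose (median 0.42), with 510 to 517 CPM against 585 to 650 CPM. Of 5 neural crest glia markers, 0 passed in litter 1 (median -0.07; 193 to 238 against 175 to 223 CPM) and 1 rose in litter 2 (median 0.55; 110 to 124 against 163 to 173 CPM). The sign of a list median beside that of a single *Kcn* gene does not show where a difference comes from, so no match between them is drawn here. In litter 1 the endothelial list (263 to 308 CPM in controls against 214 to 237 CPM) and the pericyte list (166 to 183 against 152 to 163 CPM) did not overlap either, with 0 markers past the edgeR test; groups without overlap occurred in 18.6% of all genes in litter 1 and in 51.7% in litter 2. In litter 2 the erythroid list (1250 to 1342 against 1531 to 1894 CPM, 1 marker higher), the mesenchyme list (1024 to 1194 against 1247 to 1416 CPM), the motor neuron list (77.8 to 96.6 against 99.3 to 118 CPM) and the skeletal muscle list (60.6 to 71.3 against 17.4 to 20.3 CPM) did not overlap, with 0 markers of the last 3 lists past the test. No marker of the ganglion and glia lists was at 0 in the series, and the part of all these cells in the *Kcn* differences was not tested.

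The 10 pan-neuronal markers had 1 lower and 0 higher in the comparison over both litters (median 0.04), with summed levels of 9859 to 10399 CPM in controls and 9659 to 10387 CPM in embryos labelled *Dot1l*-cKO of litter 1, and of 9418 to 9579 and 9084 to 9712 CPM in litter 2. The neural progenitor list had 1 of 8 lower (median -0.09). The summed levels of both lists overlapped between the genotype labels in each litter.

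The litters differed more than the genotypes. With the genotype as a term, 45 of the 69 members were lower and 2 were higher in litter 2 than in litter 1 (edgeR's quasi-likelihood test), beside 17.8% of all genes lower and 16.9% higher. Of the protein-coding genes under the same level rule, 21.2% were lower and 22.3% higher. The median log2 fold change of the members was -0.46, with 64 negative values, and that of all genes was -0.02. Of the 61 members at 1 CPM or more in each embryo, 38 were lower and 2 higher, and 4 members (*Kcnj16*, *Kcnj6*, *Kcnn4* and *Kcns1*) were under 1 CPM in each litter 2 embryo.

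Each class took part. Lower in litter 2 were 18 of 28 voltage-gated alpha subunits (median -0.43), 4 of 5 silent modifiers (-0.84), 6 of 8 calcium- or sodium-activated channels (-0.59), 4 of 7 two-pore channels (-0.41), 7 of 9 inward rectifiers (-0.52) and 6 of 12 auxiliary subunits (-0.32). These counts and medians include *Kcns1*, *Kcnn4*, *Kcnj16* and *Kcnj6*. All 4 were called lower and had met the level rule through litter 1 embryos alone, which favoured that direction. All 28 voltage-gated genes and all 12 auxiliary genes had negative values. The higher ones were *Kcnk5* and *Kcnn1*.

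*Kcna4*, the subunit of a rapidly inactivating channel, had the largest litter difference. It was at 5.67, 5.42 and 5.40 CPM in the controls of litter 1, 8.49, 6.85 and 6.28 CPM in their littermates labelled *Dot1l*-cKO, 1.95 and 1.67 CPM in the controls of litter 2 and 2.05 and 1.95 CPM in the litter 2 embryos labelled *Dot1l*-cKO. All litter 2 embryos lay below all litter 1 embryos, and the genotype labels overlapped in litter 2. The level in litter 2 was 0.302 of that in litter 1 (log2 fold change -1.73 with a standard error of 0.12, adjusted p = 7.99e-07, edgeR).

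*Kcns1* (-1.59, adjusted p = 3.99e-04) and *Kcnc4* (-1.57, adjusted p = 4.34e-06) followed on the log2 scale in the same test. *Kcns1*, at 0.202 to 1.25 CPM, reached the level rule through the 3 litter 1 embryos labelled *Dot1l*-cKO alone, and *Kcnj16*, *Kcnj6* and *Kcnn4* did so through litter 1 embryos alone, so that the rule itself favoured a lower value in litter 2 for these 4. *Kcnj16* (-1.35) and *Kcnj6* (-1.25), inward rectifiers of glia and of G-protein-coupled inhibition, were low in each embryo, at 0.150 to 1.12 CPM and 0.354 to 1.73 CPM. *Kcnt1*, a sodium-activated channel, was at 22.6, 21.2 and 23.6 CPM in controls and 23.7, 22.0 and 22.6 CPM in embryos labelled *Dot1l*-cKO of litter 1, and 9.60 and 10.0 against 9.83 and 11.0 CPM in litter 2. Its groups overlapped by genotype and stood wide apart by litter (log2 fold change -1.16 with a standard error of 0.07, adjusted p = 1.61e-07, edgeR). The other members of the 10 largest were *Kcnc2* (-1.15), the ether-a-go-go gene *Kcnh5* (-1.09), *Kcns2* (-1.02) and *Kcnh6* (-1.02).

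*Kcnk5* went the other way, at 7.07, 6.15 and 7.85 CPM in controls and 4.73, 6.96 and 5.23 CPM in embryos labelled *Dot1l*-cKO of litter 1, and 11.7 and 11.1 against 9.65 and 9.20 CPM in litter 2. Each litter 2 embryo lay above each litter 1 embryo (1.65-fold, log2 fold change 0.72 with a standard error of 0.11, adjusted p = 1.60e-04, edgeR). *Kcnn1*, the most abundant calcium-activated member per length, was at 22.9, 26.1 and 28.8 CPM in controls and 24.3, 27.3 and 26.1 CPM in embryos labelled *Dot1l*-cKO of litter 1, and 26.8 and 33.2 against 31.8 and 34.6 CPM in litter 2, with an overlap between the litters (1.22-fold, log2 fold change 0.28 with a standard error of 0.08, adjusted p = 0.0114, edgeR).

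Several members of high or moderate level had small litter differences. *Kcnq3*, a subunit of the M-type channel that holds neurons below threshold, had a log2 fold change of -0.04, adjusted p = 0.716, *Kcnh2* had -0.04, adjusted p = 0.774 and the glial inward rectifier *Kcnj10* had -0.03, adjusted p = 0.808, all from the same edgeR fit.

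**Figure D5:**
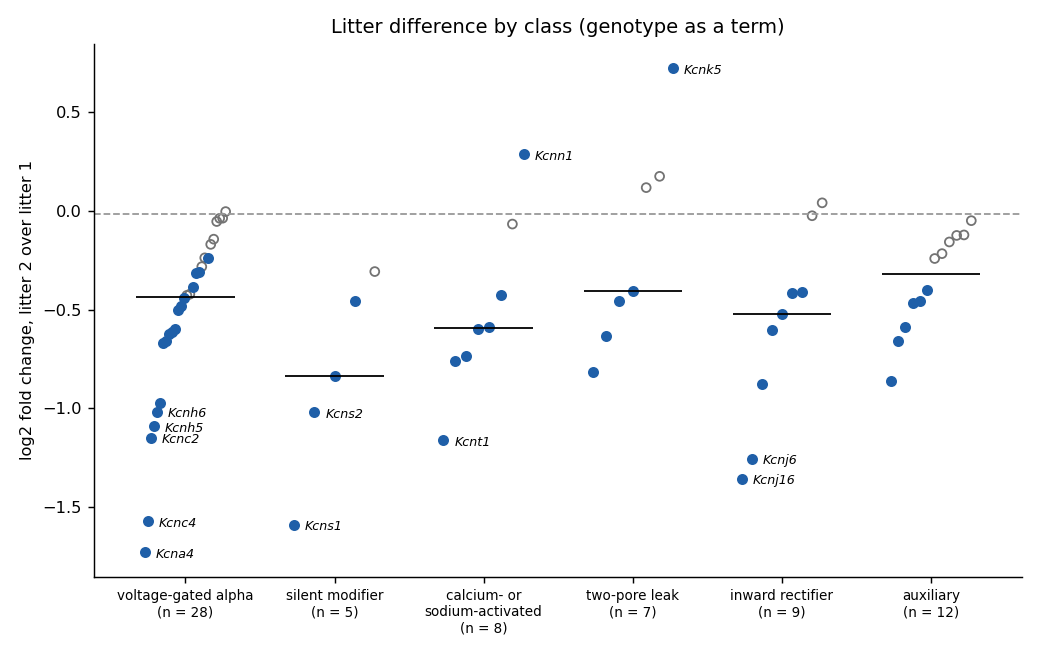
Each point is the log2 fold change of 1 gene between litter 2 and litter 1 from the fit with genotype, by channel class; filled points have an adjusted p below 0.05, black lines are class medians and the dashed line is the median of all genes tested (-0.02). Below 0 lie 45 filled points, and above it lie 2, *Kcnk5* and *Kcnn1*.

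The difference was seen within each genotype label. Among controls 40 members were lower and 1 (*Kcnk5*) was higher in litter 2, beside 11.8% and 11.5% of all genes. Among embryos labelled *Dot1l*-cKO 36 were lower and 2 (*Kcnk5* and *Kcnn1*) higher, beside 10.8% and 9.65%. The controls of the litters also differ in the number of floxed alleles, the embryos labelled *Dot1l*-cKO in their *Xist* level, and each litter is a single litter, so that litter, developmental progress within the day, dissection and handling cannot be told apart.

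Cell type markers moved with the litter. Of 8 neural progenitor markers 7 were higher in litter 2 (median 0.66), with summed levels of 3770 to 3987 CPM against 2553 to 3152 CPM in litter 1. Of 9 dorsal root ganglion markers 6 were lower (median -1.24), at 510 to 650 against 749 to 1142 CPM. Of 10 pan-neuronal markers 5 were lower (median -0.12), at 9084 to 9712 against 9659 to 10399 CPM. The erythroid list had 4 of 5 higher (median 0.87), at 1250 to 1894 against 709 to 830 CPM, and 3 of 5 neural crest glia, 3 of 5 endothelial and 3 of 4 pericyte markers were lower. The part of these cells in the litter difference of the *Kcn* genes was not tested.

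Partners of potassium channels that carry other names were described from a fixed list. Of 16 such genes, 14 were tested. In the genotype comparison 2 rose, beside 1.90% of all genes, and 0 fell. They were *Lrrc55*, an auxiliary subunit of the BK channel (0.46 on the log2 scale, adjusted p = 0.0330, edgeR), and *Cntnap2*, which gathers KV channels beside the node of Ranvier (0.17, adjusted p = 0.0492, edgeR). The latter lay close to the threshold, and neither was followed through the alternatives. Between the litters 10 were lower, beside 17.8% of all genes, among them the Shal partners *Dpp6* (-0.53) and *Dpp10* (-1.03) and the ATP-sensitive channel subunit gene *Abcc9* (-0.71), and 1 was higher (*Lrrc38*, 1.02, at a mean of 0.420 CPM).

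Of 7 genes for potassium and chloride transport, 0 passed in the genotype comparison, and 6 were lower in litter 2 (median -0.48), against the same background. They included the sodium pump subunit gene *Atp1b1* (-0.73) and the chloride exporter gene *Slc12a5* (-0.48), while *Slc12a2*, the chloride importer, had -0.01. Of the 4 HCN cation channel genes, 0 passed for genotype and 3 were lower in litter 2, beside 17.8% of all genes (among them *Hcn2*, -0.72 and *Hcn3*, -0.42).

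The members lay on 18 chromosomes. Their gene bodies were long, with a median span of 45.3 kb and a maximum of 1135 kb (*Kcnip4*), beside a median of 24.7 kb over the protein-coding genes tested, while the exon length was similar (medians 4833 and 4384 bases). Of the 69 members, 23 share exon bases with another annotated gene, 12 of them 200 bases or more, and the largest overlap was that of *Kcna6* with the antisense *Gm26673* (2355 bases), so that part of the *Kcna6* reads may belong to that transcript.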

How the data were processed

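RNA from 10 embryos was measured by poly-A RNA-seq, and the values deposited by the authors are unnormalized read counts on genes, made by trimming with TrimGalore, alignment to mm10 (GRCm38) with STAR and counting with featureCounts on GENCODE genes; the strand setting is not given in the sources used here. Of 54146 gene identifiers, 54079 matched a GENCODE annotation of the same build. Groups, litters and alleles came from the sample labels. Total counts per embryo (40949585 to 68928443) set the counting precision.

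Counts were analysed in R 4.3.3 with edgeR 4.0.16 (TMM, default expression filter, quasi-likelihood test, Benjamini-Hochberg adjustment over all genes tested, threshold 0.05). The genotype and litter comparisons came from a fit with both terms (19773 genes), the within-litter comparisons and the interaction from a fit with 4 group means (20446 genes), in which all embryos share an estimate of the spread. Standard errors are the log2 fold change divided by the root of the F statistic. CPM values are TMM-scaled, except in the level rule, which used plain CPM. Embryos of the same group were never alike within sampling noise: over 20 pairs, the chi-square per gene was 9.31 to 85.2.

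Alternatives were DESeq2 1.42.0, limma-voom (limma 3.58.1), DESeq2 size factors, other filters, robust estimation, other covariates, each litter alone and leaving out each embryo. On simulated counts of 19773 genes for the genotype comparison, edgeR recovered 41.7% of 96 genes changed by 0.4 and 67.0% of 97 changed by 0.8 on the log2 scale. Within litter 1 it recovered 18.4% and 55.1%, and within litter 2 7.14% and 46.9%. A missing call within a litter therefore does not show that a difference is absent. Named genes were the members called for genotype or within a litter, the 20 with the smallest genotype p, the 10 with the largest litter difference, the highest of each class and those nearest to the level rule; *Kcna6*, *Kcnab2*, *Kcnj8*, *Kcnj9*, *Kcnj10*, *Kcnn4* and *Kcnq3* were named after their values were seen. Some genes that these rules name are not reported here. Members, classes and lists were chosen with earlier results of these data known. *Drgx*, on the ganglion marker list, matched no row. Promoters came from RefSeq (GRCm38.p6).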

Additional observations from a re-analysis of the deposited data

How the results depend on the processing

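No sign reversed among the 20 members followed in the genotype comparison, the 10 in the litter comparison and the 3 and 2 called within litters 1 and 2; other named members were not followed through the alternatives. With DESeq2, 11 members were higher and 1 (*Kcnmb2*) lower in embryos labelled *Dot1l*-cKO, and with no expression filter 13 and 2 (*Kcnh6* and *Kcnmb2*). The shares of all genes called were not counted under the alternatives, so these larger counts have no background beside them. On the simulated counts 15.4% of the DESeq2 calls and 5.41% of the edgeR calls for genotype were unchanged genes. Without the litter term 0 were higher and 0 lower, and the cause was not tested. With *Xist* as a covariate 0 were higher and 2 lower, *Kcnh6* and *Kcnmb2*, the genes that fell in litter 1. Low *Xist* marked only the litter 2 embryos labelled *Dot1l*-cKO. This fit therefore nearly repeats the comparison within litter 1 and is no separate adjustment for sex. DESeq2 size factors, limma-voom, robust estimation and a minimum of 10 counts gave the same 5 genes. For litter 1, DESeq2 gave 5 higher, no filter 7 higher, and litter 1 alone 0 higher and 0 lower. For litter 2, DESeq2 gave 4 higher, limma-voom 1, no filter 7, and litter 2 alone 5. The interaction had 2 higher with DESeq2 and 4 with no filter. Between the litters, *Xist* as a covariate gave 1 higher (*Kcnk5*) and 39 lower, close to the controls alone with 1 higher and 40 lower. Leaving out each embryo in turn gave 1 to 9 higher and 0 to 1 lower for genotype, 1 to 3 higher and 42 to 47 lower for litter, 0 to 5 higher and 0 to 2 lower in litter 1, 0 to 4 higher and 0 lower in litter 2, and 0 to 1 higher for the interaction. With 2 embryos, a group of litter 2 left with a lone embryo was assumed to vary like the other groups. No paired analysis was possible because the replicate numbers of the labels are not shared between the genotype groups. Genes near 1 CPM, such as *Kcns1* and *Kcnj16*, rest on few reads; *Kcnj16* lost its litter call with *Xist* as a covariate and among controls.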
